A study of Mus musculus with 34 samples.

Results

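Airway epithelium brushed from the trachea of Gprc5a-/- mice 2 to 6 months after exposure to the tobacco nitrosamine NNK was set against epithelium of Gprc5a-/- mice that had not yet been exposed. The 16 post-exposure libraries were taken 2 months (t2, n = 5), 4 months (t4, n = 6) and 6 months (t6, n = 5) after the last dose and pooled as 1 group, and the 6 baseline libraries were taken before exposure. These 22 libraries were chosen by their labels from 34 in the series, which also holds 6 knockout libraries from the end of exposure (t0) and 6 from unexposed wild-type mice. The design text places the time of lung adenocarcinoma at 6 months. Mice received NNK into the peritoneum over 8 weeks, 3 doses of 50 mg/kg per week, and each gave 1 library. The RNA, of integrity 7 or more, was sequenced as poly-A libraries on an Ion Proton. Every group compared carries the Gprc5a deletion, baseline included. The labels give an age of 6 to 8 weeks to all groups, also to those collected months later, and no unexposed knockout group as old as the later months was analysed here. Neither the exposure nor the time since exposure can therefore be told apart from age.

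NNK is activated in airway cells by cytochromes P450 into species that alkylate DNA, and club cells carry much of that activity. Gprc5a encodes a retinoic acid-inducible receptor of lung epithelium, and mice without it develop lung tumours that NNK makes more frequent. The tracheal lining is built from basal stem cells, secretory club and goblet cells and ciliated cells, with rarer tuft cells, ionocytes and neuroendocrine cells. After injury, basal cells can take on a squamous form with stratified keratins and cornified envelope proteins before the secretory and ciliated lining returns. The comparison asked which transcripts still differed in the airway long after the exposure had ended.

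Total counts were 15625264 to 37609774 per post-exposure library and 22749047 to 29650392 per baseline library. Gprc5a had 4 to 49 counts in 15 of the post-exposure libraries and 17 to 41 at baseline, but 238 counts (8.06 CPM of the library total, 7.70 CPM after TMM) in the library labelled t2 339, which also had the fewest genes above 0 (14283). The log2 fold change of Gprc5a over the 22 libraries was 0.39 ± 0.57 (SE, adjusted p = 0.665). Haemoglobin made up 25.5% of counts in t4 371, 15.3% in t6 349 and up to 3.06% in the remaining post-exposure libraries, against up to 1.52% at baseline. In t6 365, 14.8% of counts were Rn45s, a ribosomal RNA precursor. By Xist and Y-linked counts the post-exposure mice were 7 males and 9 females, and the baseline mice 2 males and 4 females. Club, ciliated and basal markers such as Scgb1a1, Foxj1 and Krt14 were above 0 CPM in all 22 libraries.

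Of 14551 genes tested, 3043 (20.9%) differed between the pooled months and baseline at an adjusted p under 0.05 by edgeR's quasi-likelihood test with Benjamini-Hochberg adjustment, the test behind every adjusted p below. Among them 1598 genes (11.0%) were higher and 1445 (9.93%) lower after exposure, 507 and 342 of these by at least 2-fold, and 205 and 51 by at least 4-fold. The median log2 fold change of all genes tested was 0.019. Without baseline 356 the count was 1844, with 962 higher and 882 lower. Without both baseline libraries highest in the thyroid transcript Tg, 343 and 356, it was 978. For 142 genes (0.976% of those tested) all 16 post-exposure libraries lay above all 6 baseline libraries, and for 197 (1.35%) all lay below. With scaling by library totals only, the all-gene median moved to 0.0968 and 71.2% of the calls were in the higher direction (52.5% with TMM).

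CPM are counts per library total, scaled to a common size. Levels below are CPM adjusted by TMM (trimmed mean of M values), given as the lowest to the highest library with the median. Changes are log2 fold changes of the pooled months over baseline with their SE. In bulk RNA, fewer cells of a type and less RNA per cell cannot be told apart.

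Among the genes with the smallest p-values, Serpinb10, an intracellular serine protease inhibitor, lay at 11.4 to 39.3 CPM (median 23.5) after exposure and at 0.629 to 2.59 CPM (median 1.57) at baseline. The lowest post-exposure library was several times above the highest baseline library, and the change was 3.91 ± 0.31 (adjusted p = 4.92e-09). Ecm1, a secreted matrix protein of squamous epithelium, reached 74.3 to 541 CPM (median 185) after exposure and 9.98 to 31.6 CPM (median 13.7) at baseline (3.78 ± 0.43, adjusted p = 2.7e-06). Their promoters are shown as examples of genes that rose without overlap between the groups and hold a match to the AP-1 motif TGANTCA. Capitals mark the match, and the motif reads the same on both strands. Promoters of other genes that rose without overlap, among them Pitx1, F5, Fads3, Barx2 and Bcat1, are not shown. The 250 bases upstream of the gene start are from RefSeq (GRCm38.p6), written 5′ to 3′ on the strand of the gene, chr1:107528753-107529002 (+) for Serpinb10 and chr3:95739570-95739819 (−) for Ecm1.
Serpinb10: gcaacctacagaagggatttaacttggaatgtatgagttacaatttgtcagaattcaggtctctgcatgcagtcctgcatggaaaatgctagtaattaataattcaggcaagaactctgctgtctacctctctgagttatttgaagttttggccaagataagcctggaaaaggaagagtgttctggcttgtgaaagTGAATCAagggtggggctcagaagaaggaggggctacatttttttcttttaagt
Ecm1: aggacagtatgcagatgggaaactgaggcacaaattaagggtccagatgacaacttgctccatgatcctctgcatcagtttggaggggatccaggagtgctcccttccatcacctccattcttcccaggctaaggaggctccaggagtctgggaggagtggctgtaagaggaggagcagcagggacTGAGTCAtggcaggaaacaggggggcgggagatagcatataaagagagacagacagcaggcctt
The match lies 54 to 48 bases upstream of the start in Serpinb10 and 64 to 58 bases upstream in Ecm1. Of 32536 RefSeq promoters of this length, 6.73% hold a match. In the squamous list below, 10 of the 19 members tested had a promoter in the table and 7 of those 10 held a match (Krt13, Sprr1a, Serpinb2, Serpinb5, Sbsn, Ecm1 and Dmkn). Of these, Sprr1a, Sbsn and Dmkn were not called (adjusted p = 0.383, 0.338 and 0.113). In the club cell list, 13 members had a promoter, of which 0 held the forkhead site TGTTTAC (3.17% of all promoters) and 3 held the NKX2-1 core CTCAAG (13.3% of all promoters), both searched on both strands. A list member counted as holding a match if any of its listed starts did, whereas the share of all promoters counts each distinct promoter once. The 2 are therefore not like measures. A match is a string of letters and says nothing of binding.

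The other genes with the smallest p-values on the rising side were regulators and enzymes of different kinds. Pitx1, a homeobox factor, was at 29.4 to 75.1 CPM (median 49.2) after exposure and 7.41 to 15.7 CPM (median 10.6) at baseline (2.22 ± 0.21, adjusted p = 6.8e-08). F5, coagulation factor V, was at 85.8 to 192 CPM (median 108) after exposure and 18.3 to 45.7 CPM (median 28.3) at baseline (1.95 ± 0.19, adjusted p = 2.48e-07). Fads3, a fatty acid desaturase family member, was at 90.9 to 143 CPM (median 121) after exposure, against 37.5 to 51.4 CPM (median 44.6) at baseline (1.38 ± 0.12, adjusted p = 2.13e-08). None of these 3 had overlapping groups. Barx2, a homeobox factor and a member of the submucosal gland list, likewise had no overlap, with 36.6 to 65 CPM (median 46.8) after exposure and 12.7 to 22.2 CPM (median 17.9) at baseline (1.43 ± 0.13, adjusted p = 5.71e-08). Bcat1, which starts the breakdown of branched-chain amino acids, was low in both groups, at 2.38 to 14.7 CPM (median 5.18) after exposure and 0.116 to 0.363 CPM (median 0.164) at baseline (4.91 ± 0.49, adjusted p = 2.66e-07).

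On the falling side, Cckar, the cholecystokinin A receptor and a member of the club cell list, was at 2.73 to 22.3 CPM (median 14.6) after exposure and 127 to 227 CPM (median 167) at baseline (−3.68 ± 0.28, adjusted p = 4.92e-09). Slc38a1, a glutamine transporter, was at 15.7 to 46 CPM (median 22.5) after exposure and 101 to 155 CPM (median 125) at baseline (−2.40 ± 0.17, adjusted p = 1.07e-09). Serpinf1, the secreted pigment epithelium-derived factor, was at 5.01 to 18.2 CPM (median 9.32) after exposure and 34.8 to 77.1 CPM (median 65.5) at baseline (−2.64 ± 0.20, adjusted p = 2.12e-09). All 3 genes were lower in every post-exposure library than in any baseline library. The same held for AU021092, which had the smallest p-value of all genes tested, with 50.4 to 100 CPM (median 80.7) after exposure and 227 to 457 CPM (median 279) at baseline (−1.96 ± 0.13, adjusted p = 9.68e-10). Ppic, a peptidyl-prolyl isomerase of the secretory pathway, had 16.4 to 28.8 CPM (median 22.3) after exposure and 54.6 to 82.4 CPM (median 60.8) at baseline (−1.52 ± 0.11, adjusted p = 1.28e-09). Acsm1, a mitochondrial enzyme that activates medium-chain fatty acids, had 34 to 68.5 CPM (median 47.3) after exposure and 114 to 180 CPM (median 143) at baseline (−1.54 ± 0.12, adjusted p = 4.92e-09). Their groups did not overlap either.

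The largest falls by fold held several genes of uneven level. Bex1, a small brain-expressed adaptor on the X chromosome, was at 0 to 2.75 CPM (median 1.25) after exposure and 6.82 to 13.9 CPM (median 10.2) at baseline (−2.94 ± 0.43, adjusted p = 3.57e-05). Zfp521, a zinc finger regulator of progenitor cells, was at 0 to 5.17 CPM (median 1.11) after exposure and 8.1 to 14.2 CPM (median 9.86) at baseline (−2.76 ± 0.51, adjusted p = 0.000516). Both were lower in all 16 post-exposure libraries. Prex2, a Rac exchange factor, was called (−3.50 ± 0.56, adjusted p = 0.000118), but baseline 344 held 60 CPM against 1.54 to 6.97 CPM in the other baseline libraries, and the change was −1.65 without it. Wdr89 rested on the same library, with −2.80 ± 0.65 in all and −0.19 without it (adjusted p = 0.815). Mcpt2, a mast cell protease, changed by −3.07 ± 0.74, or −2.18 at the least with 1 library left out. It stood at 44.2 and 27.2 CPM in baseline 345 and 355 and at 0 to 4.32 CPM in the other baseline libraries, and the call was lost in all 3 limma fits (adjusted p = 0.173 at the highest). Among the most abundant genes that rose, the nuclear RNA Neat1 was at 1722 to 4157 CPM (median 2603) after exposure and 874 to 2249 CPM (median 1710) at baseline (0.73 ± 0.19, adjusted p = 0.0093), a call lost without t4 or without baseline 343 and 356 together (adjusted p = 0.119 at the highest).

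**Figure D1:**
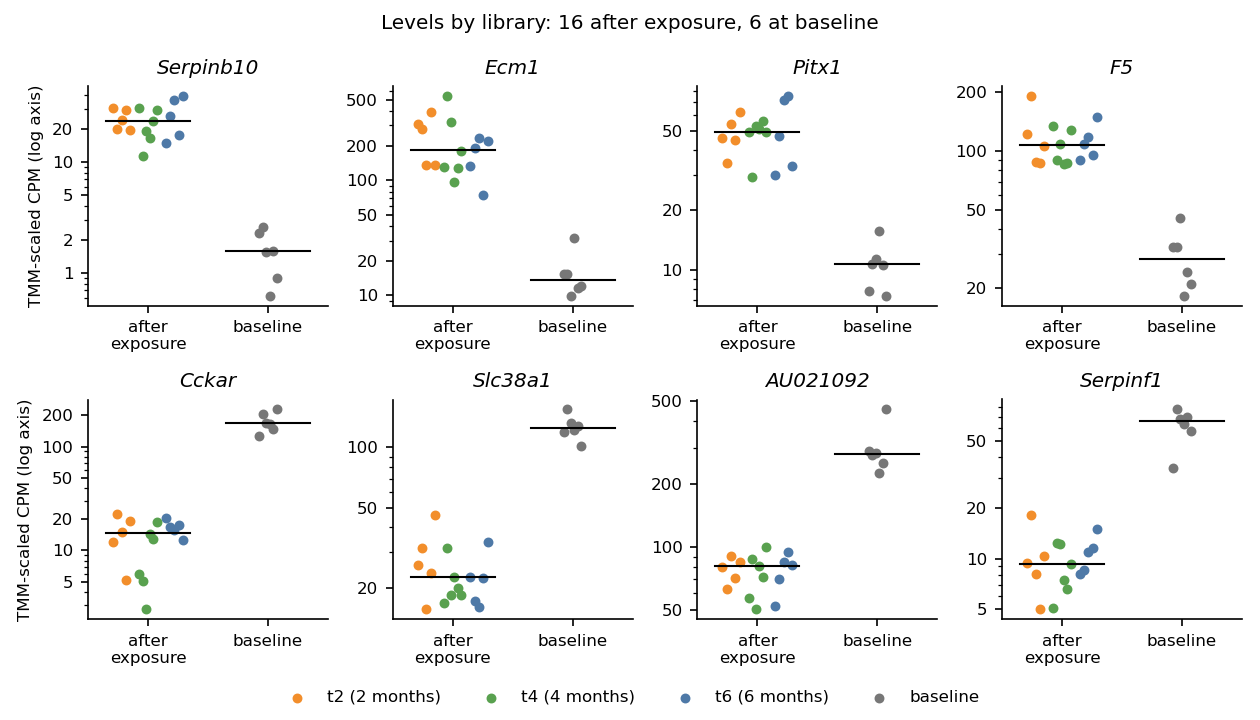
TMM-scaled CPM (log axis) of 8 genes in the 16 post-exposure libraries, coloured by month, and in the 6 baseline libraries to their right, with a line at each group's median. Serpinb10 lies at 11.4 to 39.3 CPM after exposure and at 0.629 to 2.59 CPM at baseline, and Cckar at 2.73 to 22.3 CPM after exposure and 127 to 227 CPM at baseline.

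These genes stood differently at the end of exposure. At t0 Serpinb10 averaged 32.5 CPM, Pitx1 56.2 CPM and Barx2 43.7 CPM, and the pooled months did not differ from t0 for them (adjusted p = 0.163, 0.481 and 0.506). Slc38a1 (21.8 CPM at t0), Ppic (24 CPM) and Serpinf1 (12.5 CPM) were also not called between the pooled months and t0 (adjusted p = 0.63, 0.586 and 0.269). Fads3 was at 23.8 CPM at t0, below baseline, and was higher in the pooled months than at t0 (2.30 ± 0.19, adjusted p = 2.69e-10). AU021092 stood at 18.9 CPM at t0 and was higher in the pooled months than at t0 (2.01 ± 0.20, adjusted p = 8.28e-09). Acsm1 had 105 CPM at t0 and was lower in the pooled months than at t0 (−1.09 ± 0.15, adjusted p = 5.96e-07). Over all genes, 5657 (38.9%) were called between the pooled months and t0. Both comparisons share the 16 post-exposure libraries.

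Transcripts of club cells, the secretory cells that detoxify inhaled compounds, fell most evenly. Of 19 members tested, 15 were lower and 0 higher, with a median change of −0.88, against 0.019 over all genes. The summed level of the list was 41981 to 77125 CPM (median 56298) after exposure and 87219 to 121813 CPM (median 96296) at baseline, with no overlap (sums are CPM of the library total). At t0 the median sum was 36138 CPM, and over t2, t4 and t6 it was 64633, 54724 and 56827 CPM.

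The secretoglobins, small proteins that make up much of what club cells secrete, carried part of this. Scgb3a1 was at 1791 to 6696 CPM (median 4126) after exposure and 7417 to 18301 CPM (median 11087) at baseline (−1.59 ± 0.23, adjusted p = 3.8e-05). Scgb3a2 was at 1595 to 5652 CPM (median 2919) after exposure and 6040 to 14932 CPM (median 7589) at baseline (−1.53 ± 0.20, adjusted p = 1.4e-05). The groups did not overlap for either gene. Scgb1a1, the main club cell protein, overlapped in 3 of the 16 libraries, at 7411 to 31638 CPM (median 18906) after exposure and 25456 to 44173 CPM (median 29757) at baseline (−0.75 ± 0.22, adjusted p = 0.019, and 0.0664 without baseline 344). At t0 these genes averaged 515, 822 and 704 CPM, and all were higher in the pooled months than at t0 (adjusted p = 1.29e-08, 7.89e-06 and 1.04e-10).

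Other club cell genes fell with them. The aldehyde dehydrogenases Aldh1a7 (88 to 183 CPM, median 132, after exposure and 305 to 479 CPM, median 338, at baseline, −1.41 ± 0.13, adjusted p = 4.69e-08) and Aldh1a1 (1993 to 3354 CPM, median 2613, after exposure and 3708 to 10599 CPM, median 5225, at baseline, −1.14 ± 0.15, adjusted p = 9.63e-06) had no overlap. Cldn10, a tight junction protein, was at 2.98 to 28.9 CPM (median 12.1) after exposure and 37.2 to 85.6 CPM (median 50.2) at baseline (−2.04 ± 0.29). Cbr2, a carbonyl reductase of lung, was at 4068 to 13097 CPM (median 9138) after exposure and 13490 to 20324 CPM (median 15869) at baseline (−0.88 ± 0.17, adjusted p = 0.000572). Retnla, a secreted resistin-like protein, was called with all libraries (−3.31 ± 0.79, adjusted p = 0.00572), but its change was −0.88 without baseline 345 (adjusted p = 0.379). The list count was 13 to 15 with any 1 library left out.

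Squamous and cornified genes moved the other way. Of 19 members tested, 10 were higher and 0 lower, with a median change of 1.74, and another 7 members, among them Ivl, Lor and Sprr3, were too low to test. The summed level was 564 to 1702 CPM (median 1261) after exposure and 356 to 511 CPM (median 378) at baseline, with no overlap, against a median of 5633 CPM at t0. Krt4, a keratin of non-cornified stratified epithelium, was at 216 to 647 CPM (median 482) after exposure and 76.1 to 224 CPM (median 123) at baseline (1.81 ± 0.25), and averaged 2631 CPM at t0. Serpinb5, the inhibitor known as maspin, was at 13.9 to 59.9 CPM (median 28.3) after exposure and 5.7 to 10.3 CPM (median 7.53) at baseline (1.94 ± 0.24, adjusted p = 5.82e-06). Dsg3, the desmosomal cadherin of basal and squamous layers, was at 1.9 to 11.7 CPM (median 5.35) after exposure and 0.0363 to 1.35 CPM (median 0.424) at baseline. Serpinb2, which inhibits urokinase, was at 3.75 to 75.5 CPM (median 36) after exposure and 0.145 to 2.16 CPM (median 0.797) at baseline (5.19 ± 0.69). Ecm1, Serpinb5, Dsg3 and Serpinb2 had no overlap between the groups. Krt6a, taken with Krt4 and Krt13 to define squamous cells, was not called (1.74 ± 1.00, adjusted p = 0.228). Its change over baseline was 2.23 at t2, 2.17 at t4 and −0.61 at t6. Krt6b, Krt16, Sprr1a, Dsc3, Sbsn and Dmkn were not called either, nor were Krt1 and Krt10, whose changes were negative (−0.20 and −0.21). The count of higher members was 9 to 12 with any 1 library left out.

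Within the basal cell list, 6 of 22 members tested were higher (27.3%, against 11.0% of all genes) and 2 lower (9.09%, against 9.93%). Krt5, Trp63 and Krt15, the markers taken to define basal cells, were not among those called. The summed level was 2343 to 7023 CPM (median 3727) after exposure and 2295 to 3839 CPM (median 2915) at baseline. The groups overlapped, with 6 post-exposure libraries above all baseline libraries. Krt14, a keratin of basal cells in stratified and repairing epithelium, was at 26.7 to 147 CPM (median 76.1) after exposure and 3.31 to 18.8 CPM (median 3.91) at baseline (3.60 ± 0.46, adjusted p = 1.39e-05, or 4.32 at the most with 1 library left out). Every post-exposure library lay above every baseline library, of which baseline 352 was the highest. Krt17, an injury-induced keratin, was at 21 to 215 CPM (median 77.9) after exposure and 21.9 to 30.4 CPM (median 28.5) at baseline (1.75 ± 0.42, adjusted p = 0.00551). The adhesion genes Itga3, Itgb4, Col17a1 and Lama3, which anchor basal cells to the basement membrane, rose by 0.73, 0.47, 0.56 and 0.77 on the log2 scale, and Pdpn and Sparc fell by 0.81 and 0.82. Without baseline 345 or baseline 356 the number of higher members was 3. Month by month against baseline, 6 members were higher at t2, 6 at t4 and 1 at t6. Trp63, Icam1 and Itga3 differed among t2, t4 and t6, each with a higher mean at t2 than at t6.

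**Figure D2:**
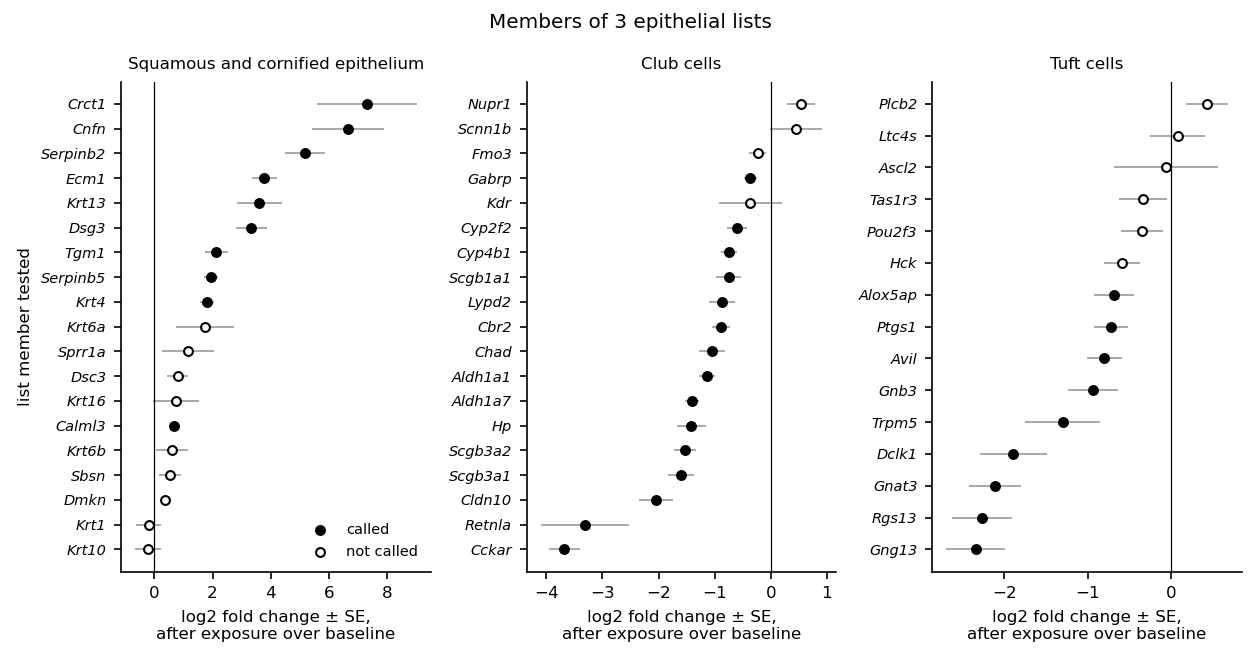
Log2 fold change, pooled months over baseline, with its SE for each tested member of the squamous, club and tuft lists, filled where the adjusted p was under 0.05. The called members lie to the right of 0 in the squamous list (10 of 19) and to the left of 0 in the club (15 of 19) and tuft (9 of 15) lists.

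Tuft cells, chemosensory cells that signal through a taste receptor cascade, had 9 of 15 tested members lower and 0 higher, with a median change of −0.72. The summed level was 61.1 to 128 CPM (median 95.3) after exposure and 137 to 257 CPM (median 158) at baseline, again with no overlap. Some members of the taste cascade fell, but Plcb2 (0.43 ± 0.25, adjusted p = 0.229) and Tas1r3 (−0.34 ± 0.29, adjusted p = 0.433) were not called. Pou2f3, taken with Trpm5 to define tuft cells, was not called either (−0.35 ± 0.26, adjusted p = 0.348). Gnat3, the gustducin alpha subunit, was at 1.19 to 8.25 CPM (median 3.02) after exposure and 8.59 to 26.8 CPM (median 11) at baseline (−2.11 ± 0.31, adjusted p = 4.08e-05). Its partner Gng13 was at 0.283 to 2.37 CPM (median 0.904) after exposure and 1.74 to 10.6 CPM (median 4.53) at baseline (−2.34 ± 0.35, adjusted p = 5.72e-05). The cation channel Trpm5 was at 0.259 to 46.9 CPM (median 10) after exposure and 23.7 to 51.8 CPM (median 31.7) at baseline (−1.30 ± 0.45, adjusted p = 0.0418). Dclk1, a kinase that marks tuft cells, was at 0 to 14.3 CPM (median 6.82) after exposure and 14.9 to 36.4 CPM (median 24.4) at baseline, without overlap. The count of lower members was 4 without baseline 356. At t0 the median sum was 221 CPM, and over t2, t4 and t6 it was 103, 113 and 73 CPM.

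Neuroendocrine genes, those of the hormone-secreting sensory cells of the airway, were higher for 8 of 18 members tested and lower for 0, with a median change of 0.97. The summed level was 101 to 251 CPM (median 162) after exposure and 81.8 to 120 CPM (median 88.5) at baseline, and 13 of the 16 post-exposure libraries lay above all baseline libraries. Chga, the granule protein chromogranin A, was at 5.49 to 26.1 CPM (median 14.9) after exposure and 3.71 to 7.32 CPM (median 5.33) at baseline (1.53 ± 0.25, adjusted p = 0.00014). Scg2, Calca, Cplx2, Resp18, Syt1 and Chgb also rose. At t0 the mean level of Chga was 13.7 CPM, and it was not called between the pooled months and t0 (adjusted p = 0.565).

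**Figure D3:**
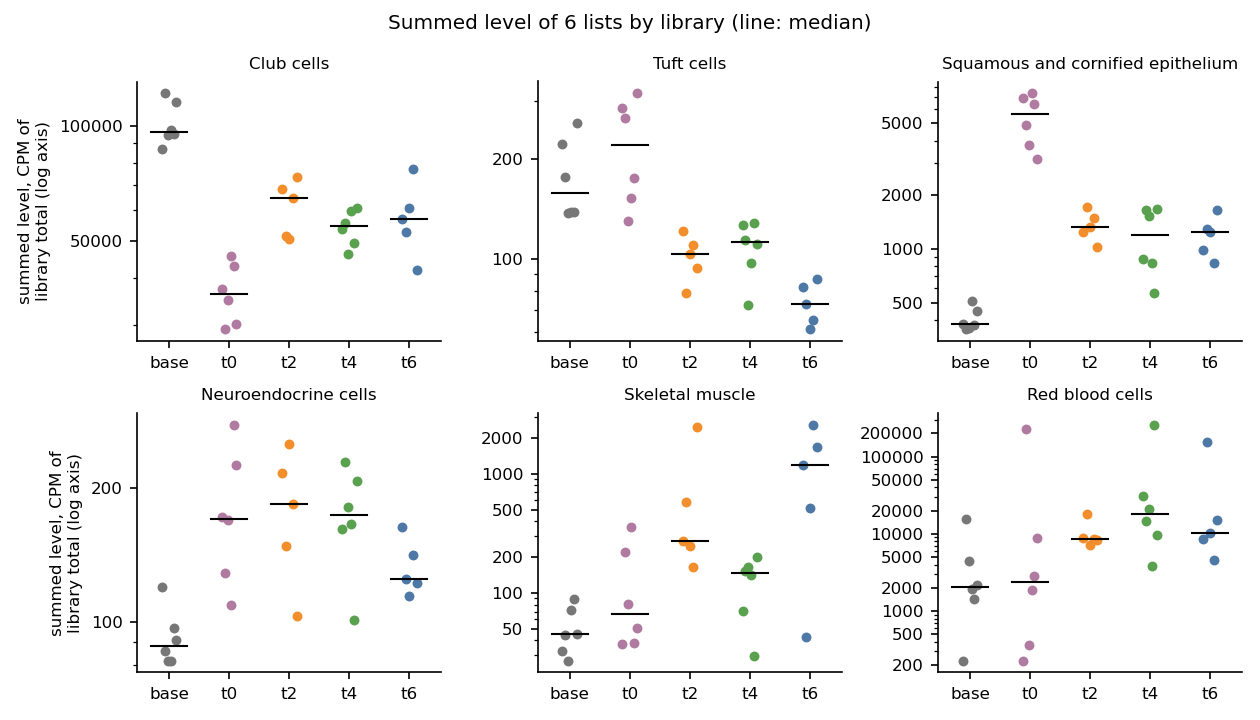
Summed level per library (CPM of the library total, log axis) of 6 gene lists at baseline, t0, t2, t4 and t6, in order of time, with a line at each group's median. The club sums of all 16 post-exposure libraries (41981 to 77125 CPM) lie below the baseline libraries (87219 to 121813 CPM), and the squamous sums (564 to 1702 CPM) lie above them (356 to 511 CPM).

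Ciliated cell genes were higher for 3 of 29 axonemal members (Tppp3, Dnaic2 and Ccdc114) and 4 of 16 regulators (Rfx2, E2f4, Foxj1 and Mcidas), and lower for 0 of either list. Tppp3, a microtubule protein of cilia, was at 1479 to 3024 CPM (median 2040) after exposure and 1080 to 1440 CPM (median 1245) at baseline (0.69 ± 0.14, adjusted p = 0.00135), with no overlap. Dnaic2, an outer dynein arm chain, was at 173 to 383 CPM (median 259) after exposure and 137 to 217 CPM (median 164) at baseline (0.63 ± 0.14, adjusted p = 0.00228). At t0 both had been lower, at 600 and 53.4 CPM, and were higher in the pooled months than at t0 (adjusted p = 7.71e-08 and 1.37e-08). The axonemal share was near that of all genes. The regulator count was unstable, at 1 without baseline 343, 344 or 356, and 2 without baseline 352, t2 334, 347 or 360, t4 340, 348, 371 or 377, or t6 349, and the axonemal count was 5 without t2 358 and 6 without t6 368.

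Ionocytes, the chloride-handling cells, had 2 of 13 members lower and 1 higher, or 23.1% called against 20.9% of all genes. The summed level was 210 to 399 CPM (median 321) after exposure and 379 to 448 CPM (median 405) at baseline, with 15 of 16 post-exposure libraries below all baseline libraries. Atp6v1b1, a proton pump subunit, was at 18.2 to 108 CPM (median 48.2) after exposure and 135 to 190 CPM (median 153) at baseline (−1.64 ± 0.25, adjusted p = 7.98e-05), and the factor Tfcp2l1 was at 26.1 to 50 CPM (median 37.9) after exposure and 44.4 to 67.5 CPM (median 59.5) at baseline (−0.62 ± 0.14, adjusted p = 0.0027). The pump subunit Atp6v0d2 rose (1.93 ± 0.55). Atp6v1b1 had no overlap and Tfcp2l1 did. Atp6v1b1 was a large part of the summed level at baseline, and a sum without it was not made. Foxi1 and Cftr, the markers taken to define ionocytes, were not among the called members.

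Goblet and mucin genes were split, with 4 of 21 members higher and 4 lower (19.0% each way, against 11.0% and 9.93% of all genes). Clca3a1, of the calcium-activated chloride channel regulator family, was at 9.09 to 69.6 CPM (median 32.1) after exposure and 1.66 to 7.38 CPM (median 3.53) at baseline, with no overlap (3.07 ± 0.42, adjusted p = 2.37e-05). Among mucins, the membrane mucin Muc4 rose (0.65 ± 0.16), and Muc20 (−0.80 ± 0.15) and the gel-forming Muc5b (−0.62 ± 0.21) fell. Fcgbp, a mucus-binding protein, was at 213 to 730 CPM (median 303) after exposure and 354 to 2329 CPM (median 776) at baseline (−1.61 ± 0.27, adjusted p = 0.000191). The number of higher members was 2 without baseline 343, 355 or 356 and 8 without baseline 352.

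Secreted defence proteins also moved both ways, with 4 of 19 lower (21.1%, against 9.93% of all genes) and 3 higher (15.8%, against 11.0%). Pigr, the receptor that carries IgA across epithelium, was at 785 to 1557 CPM (median 1042) after exposure and 2011 to 3878 CPM (median 2117) at baseline (−1.14 ± 0.15, adjusted p = 8.54e-06). Reg3g, an antibacterial lectin, was at 2483 to 5763 CPM (median 4377) after exposure and 5960 to 14625 CPM (median 9585) at baseline (−1.20 ± 0.16, adjusted p = 1.92e-05). Neither gene overlapped between the groups. Bpifb1 and complement C3 fell (−1.25 ± 0.21 and −1.17 ± 0.16), while the iron-binding protein Ltf was at 10391 to 26373 CPM (median 17748) after exposure and 5391 to 15197 CPM (median 7612) at baseline (1.00 ± 0.22, adjusted p = 0.00216). Lyz2 rose in all libraries together (adjusted p = 0.039), but its p was over the threshold without any 1 of 7 libraries (0.11 at the highest). The number of higher members was 1 without baseline 344, 355 or 356.

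Of the submucosal gland and serous list, 5 of 13 members were higher and 1 lower, a count that was 2 without baseline 343 or 356, 3 without baseline 344 or 355 and 8 without baseline 352. The summed level of the list ran the other way, at 39485 to 110006 CPM (median 75469) after exposure and 76645 to 145311 CPM (median 119888) at baseline, with 8 of 16 post-exposure libraries below all baseline libraries and 0 above. Prb1, a proline-rich salivary-type protein, was at 0.0919 to 37.1 CPM (median 3.72) after exposure and 0 to 0.678 CPM (median 0.0536) at baseline (6.38 ± 1.29, adjusted p = 0.00152, or 8.07 at the most with 1 library left out, but adjusted p = 0.0867 by limma voom with quality weights). Dmbt1, a mucosal scavenger protein, was at 1200 to 5819 CPM (median 2909) after exposure and 328 to 2414 CPM (median 674) at baseline (adjusted p = 0.0208), and was over the threshold without baseline 343 or 356 (0.064 at the highest). Sftpa1, a surfactant protein of alveolar and tracheal epithelium, was the only called gene of 13 alveolar members (7.69%, against 20.9% of all genes). It was at 51.8 to 368 CPM (median 195) after exposure and 485 to 1240 CPM (median 723) at baseline.

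**Figure D4:**
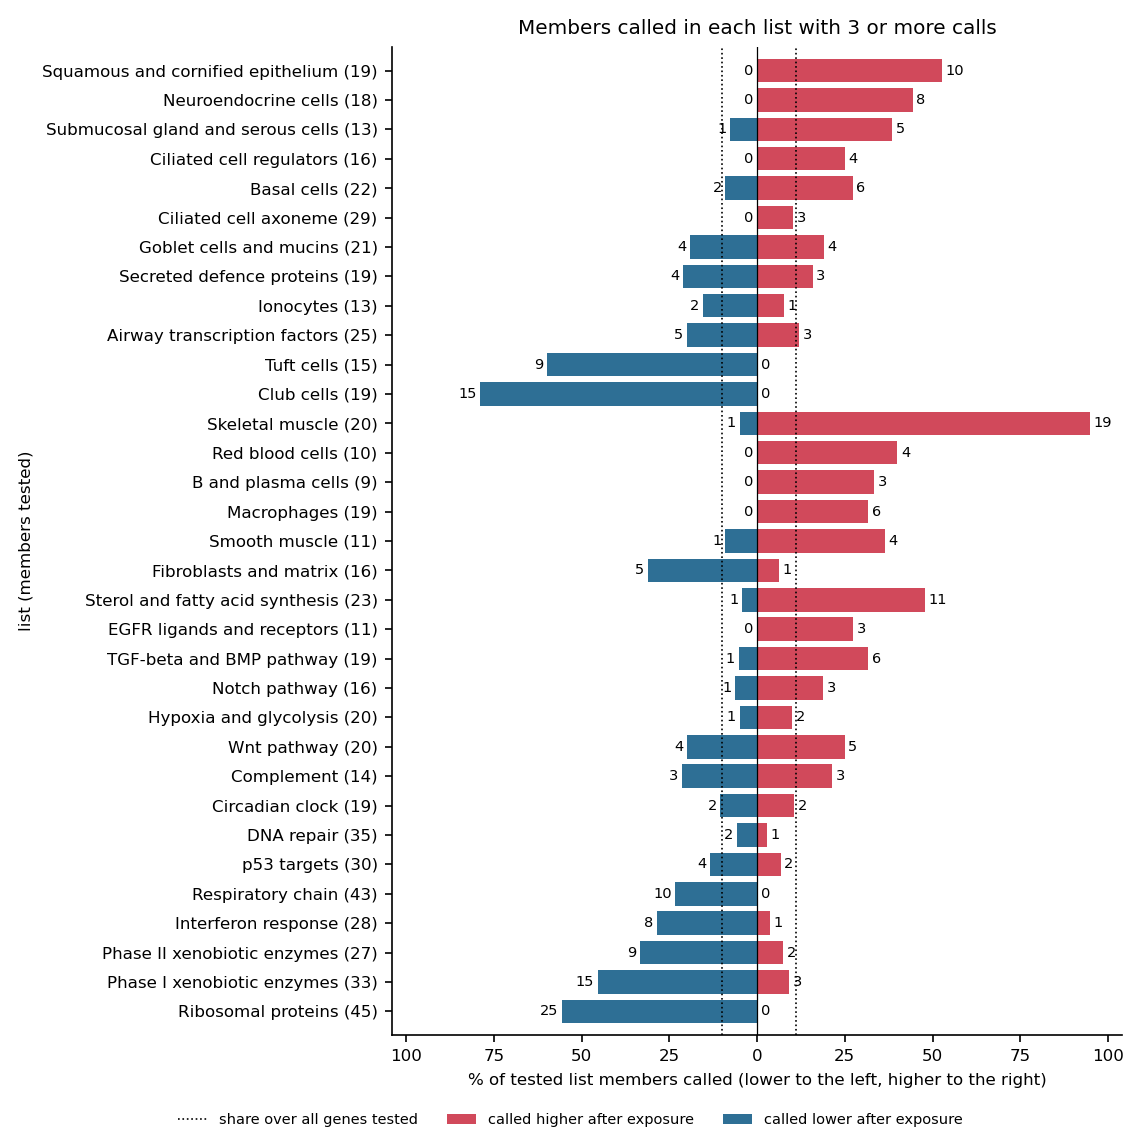
Share of tested members called lower (left) and higher (right) after exposure for every list with 3 or more calls, with the number of calls at each bar, the number tested in brackets and dotted lines at the shares over all genes (9.93% lower and 11.0% higher). Club cells (15 of 19 lower) and tuft cells (9 of 15 lower) extend to the left, and skeletal muscle (19 of 20 higher) and squamous epithelium (10 of 19 higher) to the right.

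Many enzymes that handle xenobiotics were lower. Of 33 phase I members, which oxidise or hydrolyse, 15 were lower and 3 higher (1 without baseline 345, 352 or 356), with a median change of −0.45, and of 27 phase II members, which conjugate, 9 were lower and 2 higher, with a median of −0.42. Several phase I members, among them Aldh1a1, Aldh1a7, Cbr2, Cyp2f2 and Cyp4b1, also stand in the club cell list. Cyp2a5, the mouse P450 best known for activating NNK, was at 2030 to 7450 CPM (median 3271) after exposure and 5158 to 10886 CPM (median 7866) at baseline (−1.03 ± 0.23, adjusted p = 0.00235), with 4 libraries in the baseline range. Cyp2f2, the club cell P450 that activates naphthalene, was at 8544 to 27129 CPM (median 15868) after exposure and 18885 to 29543 CPM (median 25731) at baseline (−0.60 ± 0.18, adjusted p = 0.0186, and 0.0571 without baseline 356). Cyp2a4, which is nearly identical to Cyp2a5, fell too, and reads may be shared between them. Gsta3, a glutathione transferase, was at 202 to 398 CPM (median 279) after exposure and 423 to 1025 CPM (median 624) at baseline, without overlap (−1.19 ± 0.15, adjusted p = 8.84e-06). Ugt1a6a, a glucuronosyltransferase, was at 27.8 to 131 CPM (median 56.9) after exposure and 122 to 166 CPM (median 137) at baseline (−1.19 ± 0.20, adjusted p = 0.000225). Members of the NRF2 oxidative stress list were called once in each direction among 23, with Nqo1 higher and Abcc4 lower (8.7% called, against 20.9% of all genes).

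Sterol and fatty acid synthesis genes rose for 11 of 23 members and fell for 1, with a median change of 0.40. The summed level was 1583 to 3708 CPM (median 2058) after exposure and 1379 to 1599 CPM (median 1478) at baseline, and 15 of 16 post-exposure libraries lay above all baseline libraries. Srebf2, the transcription factor that drives the cholesterol pathway, was at 232 to 368 CPM (median 293) after exposure and 135 to 220 CPM (median 181) at baseline, with no overlap (0.71 ± 0.11, adjusted p = 0.000119). Fasn, fatty acid synthase, was at 218 to 417 CPM (median 315) after exposure and 128 to 215 CPM (median 181) at baseline, also with no overlap (0.83 ± 0.13, adjusted p = 0.000104). Pathway enzymes that rose included Hmgcs1 (0.65 ± 0.19), Cyp51 (0.57 ± 0.16) and Sqle (0.40 ± 0.13), and the desaturase Scd2 fell (−0.67 ± 0.18). Srebf2 was also higher in the pooled months than at t0 (0.80 ± 0.11, adjusted p = 8.95e-07), whereas Fasn was not called there (adjusted p = 0.324). Without baseline 343 or 356 the number of higher members was 7.

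Of 45 ribosomal protein genes, 25 were lower and 0 higher, with a median change of −0.46. Their summed level was 7114 to 11697 CPM (median 9887) after exposure and 9915 to 16786 CPM (median 11703) at baseline, and 8 of 16 post-exposure libraries lay below all baseline libraries. Of 43 respiratory chain members, 10 were lower and 0 higher (median −0.21), but the summed levels were close, at 2926 to 5122 CPM (median 4348) after exposure and 4225 to 5147 CPM (median 4402) at baseline. Rpl12 was at 36.9 to 149 CPM (median 93.6) after exposure and 165 to 467 CPM (median 247) at baseline (−1.55 ± 0.23, adjusted p = 5.72e-05), and Cox6c, a cytochrome oxidase subunit, at 18.9 to 64 CPM (median 27.9) after exposure and 46.7 to 104 CPM (median 59.6) at baseline (−1.07 ± 0.21, adjusted p = 0.00117). Ribosomal protein genes have many near-identical pseudogenes, so their counts are uncertain. Without baseline 356 the counts were 15 and 6.

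Genes induced by interferon were lower for 8 of 28 members and higher for 1, with a median change of −0.62. Ifi44 was at 9.83 to 70.3 CPM (median 23.7) after exposure and 65.8 to 140 CPM (median 76.3) at baseline (−1.69 ± 0.31, adjusted p = 0.000559). Ddx58, which encodes the RNA sensor RIG-I, was at 20.2 to 65.6 CPM (median 34) after exposure and 52.8 to 88 CPM (median 59.4) at baseline (−0.80 ± 0.16, adjusted p = 0.00121). Each gene had 1 post-exposure library inside the baseline range. The number of lower members was 3 without baseline 344 or 356, and 15 without the 4 post-exposure libraries highest in muscle transcripts.

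Immune cell markers were higher for 6 of 19 macrophage members and 3 of 9 B cell members and lower for 0 of either. Cd68, a lysosomal protein of macrophages, was at 7.35 to 43 CPM (median 21.1) after exposure and 7.02 to 11.3 CPM (median 9.52) at baseline (1.21 ± 0.26, adjusted p = 0.00193), and averaged 163 CPM at t0. The mannose receptor Mrc1 (2.03 ± 0.56), the integrin Itgax (1.14 ± 0.39) and the protease Ctss (1.05 ± 0.30) also rose. Cd22, a B cell surface lectin, was at 0.49 to 10.6 CPM (median 3.09) after exposure and 0 to 0.771 CPM (median 0.352) at baseline (3.33 ± 0.73, adjusted p = 0.00254). The macrophage count was 3 without baseline 343 or 355. Neutrophil, T and NK cell, mast cell and endothelial lists had 1 of 9, 2 of 14, 2 of 8 and 1 of 12 members called.

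Growth factor and signalling lists had a few clear members. Of 11 EGFR ligands and receptors, Ereg, Areg and Nrg1 rose and 0 fell. Ereg, epiregulin, was at 0.244 to 48.1 CPM (median 3.66) after exposure and 0.0365 to 0.425 CPM (median 0.183) at baseline (5.32 ± 0.99, adjusted p = 0.00063), and Areg, amphiregulin, at 1.09 to 191 CPM (median 9.47) after exposure and 0.694 to 2.35 CPM (median 1.8) at baseline (3.79 ± 1.03, adjusted p = 0.0134, or 2.89 at the least with 1 library left out). Of 14 MAPK feedback genes, 0 were called.

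Within the TGF-beta and BMP list, 6 of 19 members rose and 1 fell. The ligand Tgfb1 was at 7.17 to 19.4 CPM (median 11.2) after exposure and 2.52 to 7.9 CPM (median 4.36) at baseline (1.28 ± 0.23, adjusted p = 0.000429), while Tgfb3 was at 2.34 to 8.95 CPM (median 5.69) after exposure and 9.87 to 15 CPM (median 12.5) at baseline, with no overlap (−1.03 ± 0.20, adjusted p = 0.000993). The BMP-induced inhibitors Id1 and Id3, the ligands Tgfb2 and Bmp7 and the receptor Tgfbr2 were the others that rose, a count that was 3 without baseline 345 or 356.

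Wnt pathway genes were split, with 5 of 20 higher and 4 lower (2 without baseline 356). Wnt7b, an epithelial ligand, was at 114 to 307 CPM (median 198) after exposure and 91.4 to 119 CPM (median 97.4) at baseline (1.01 ± 0.17, adjusted p = 0.000195). Wif1, a secreted Wnt inhibitor, was at 0.0323 to 2.52 CPM (median 0.994) after exposure and 2.12 to 8.28 CPM (median 3.85) at baseline (−2.16 ± 0.48, adjusted p = 0.00256), and the receptors Lgr5 and Lgr6 fell (−1.79 ± 0.49 and −0.61 ± 0.17). In the Notch list 3 of 16 members were higher (18.8%, against 11.0% of all genes) and 1 lower (6.25%, against 9.93%). Lfng, Notch1 and Jag1 rose (0.64 ± 0.14, 0.56 ± 0.14 and 0.29 ± 0.10) and Notch2, the receptor that directs secretory fate, was at 146 to 246 CPM (median 189) after exposure and 179 to 374 CPM (median 307) at baseline (−0.65 ± 0.12, adjusted p = 0.000421).

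Among 25 airway transcription factors, 3 were higher and 5 lower, and the lower count was 3 without baseline 343 or 344 and 2 without baseline 356. Elf5, an epithelial ETS factor, was at 0 to 10.5 CPM (median 5.74) after exposure and 18.3 to 37.2 CPM (median 25.9) at baseline (−2.23 ± 0.43, adjusted p = 0.000905), with no overlap, and the related Elf3 was at 323 to 734 CPM (median 557) after exposure and 285 to 412 CPM (median 356) at baseline (0.64 ± 0.15, adjusted p = 0.00363). Ehf, Nfib, Gata6 and Foxp2 were the other factors that fell, and Id1 and Id3 rose.

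Lists for DNA damage and growth were called at or under the share of all genes. Of 30 p53 targets, 2 were higher and 4 lower (2 lower without baseline 343), with the inhibitor Cdkn1a at 55.5 to 200 CPM (median 105) after exposure and 57.1 to 72.8 CPM (median 65.2) at baseline (0.77 ± 0.20), and Ccng1 lower (−0.69 ± 0.14). Cdkn1a, Aen and Sesn1 differed among t2, t4 and t6, each with a higher mean at t2 than at t6. Against baseline, 3 p53 targets were higher at t2, 4 at t4 and 0 at t6. Of 39 cell cycle members 1 was higher (Ccnd2) and 1 lower (Plk1), and of 35 DNA repair members 1 was higher (Ogg1, which removes oxidised guanine) and 2 lower (Atm and Polb). Polb was over the threshold without baseline 356 (adjusted p = 0.0598).

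Smaller groups added single genes. In the complement list 3 of 14 members were higher and 3 lower (21.4% each way, against 11.0% and 9.93% of all genes). The higher count was 0 without baseline 343 or 355 and 1 without baseline 356, and the lower count 6 without t6 368. In the hypoxia and glycolysis list, Hk2 and Pfkfb3 rose and Eno1 fell among 20 members, and Hk2 and Eno1 each lost their call in some fits with 1 library left out (adjusted p = 0.0836 and 0.103 at the highest). In the clock list 2 of 19 members were higher and 2 lower, or 21.1% called against 20.9% of all genes. Rora, a nuclear receptor, was at 14.9 to 35.3 CPM (median 21.3) after exposure and 34.4 to 49.8 CPM (median 40.6) at baseline (−0.86 ± 0.15, adjusted p = 0.000229), the repressors Cry1 (0.78 ± 0.17, adjusted p = 0.00235) and Per2 (adjusted p = 0.00722) rose, and the activator Arntl fell (adjusted p = 0.0487). Of 18 members of MHC class I presentation, H2-D1 rose and Erap1 fell, and of 20 immediate early genes Maff rose and Jun fell.

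Transcripts of other tissues moved with the groups, and their part in the results above was not tested. Of 20 skeletal muscle members, 19 were higher and 1 (Myh7) lower, with a median change of 6.66 and a summed level of 29.9 to 2580 CPM (median 224) after exposure and 27.1 to 88.5 CPM (median 44.9) at baseline. The sums were highest in t6 366, t2 360, t6 368 and t6 341. Pvalb, the calcium buffer of fast muscle, had 10474 counts over the post-exposure libraries and 0 over the baseline libraries, a level at least 1367-fold higher against a floor of 3 counts over the baseline group (at least 947-fold without t6 366). Ckm, muscle creatine kinase, had 33178 counts after exposure and 30 at baseline, which is 433 times the baseline level per count sequenced (303 to 642, the exact 95% interval for counting error only). Without those 4 libraries the lower counts were 15 of 19 for club and 6 for tuft members, and the higher counts were 9 for squamous, 9 for neuroendocrine and 10 for sterol members.

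Smooth muscle had 4 of 11 members higher and 1 lower, a higher count that was 2 without baseline 343, 344, 345 or 355. Des, an intermediate filament of muscle, was at 3.02 to 116 CPM (median 21.1) after exposure and 0.678 to 8.17 CPM (median 2.33) at baseline (3.27 ± 0.83, adjusted p = 0.00895). Fibroblast and matrix genes were lower for 5 of 16 members and higher for 1 (Fn1), with Eln, elastin, at 1.96 to 14.6 CPM (median 6.08) after exposure and 14.8 to 49.3 CPM (median 27.6) at baseline (−2.06 ± 0.33, adjusted p = 0.000105), and Col1a1 lower too (−1.59 ± 0.27, adjusted p = 0.000268). The lower count was 3 without baseline 344 and 2 without baseline 356.

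Red blood cell genes were called higher for 4 of 10 members, but the count was 0 without any 1 of baseline 343, 352, 355 and 356 and 7 without baseline 344 or t2 339. Among them Hba-a1, an alpha globin, was at 1049 to 101260 CPM (median 2741) after exposure and 50 to 2288 CPM (median 677) at baseline (3.73 ± 1.20, adjusted p = 0.0309), and globin genes are nearly identical to each other. The count was 1 without baseline 345, and 2 without t2 334 or 360, t4 335, 336, 340, 371 or 377, or t6 349. The thyroid hormone precursor Tg was at 0.277 to 170 CPM (median 2.28) after exposure and 15 to 1053 CPM (median 105) at baseline (−3.46 ± 1.20, adjusted p = 0.044), a call that was lost without any 1 of 16 libraries. Without t2 339, t4 371, t6 349 and t6 365, the libraries set apart above, the lower counts were 14 for club, 10 for tuft, 13 for phase I, 8 for interferon and 25 for ribosomal members, and the higher counts were 9 for squamous, 10 for neuroendocrine and 11 for sterol members.

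The pooled group was not uniform over time. Of the 14551 genes, 611 (4.20%) differed among t2, t4 and t6, and 148 of these were also called between the pooled months and baseline. The count was 92 without t6 341, and between 240 and 397 without t6 365, t2 334, t2 358, t6 368, t4 335, baseline 345 or t6 366. The comparison of t2 with baseline called 3004 genes (20.6%), that of t4 called 3047 (20.9%) and that of t6 called 1350 (9.28%), and all share the baseline libraries. No member of the club, squamous, tuft or neuroendocrine lists was called as differing among the months. In simulated data that test recovered 26.9% of genes changed 2-fold, so a lack of calls in short lists does not show constant levels. Means were higher at t2 than at t6 for 8 of 19 club, 13 of 19 squamous, 14 of 15 tuft and 12 of 18 neuroendocrine members. Of the neuroendocrine members, 7 were higher than baseline at t2, 10 at t4 and 3 at t6.

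The unfolded protein response list, which holds chaperones of the endoplasmic reticulum with regulators such as Xbp1 and Atf4, differed among the months for 8 of 22 members tested (36.4%), and all 22 had a higher mean at t2 than at t6. These 8 were Hspa5, Hyou1, Creld2, Sdf2l1, Pdia4, Pdia6, Calr and Dnajb11, all of which are known to act in protein folding. Only Sdf2l1 and Pdia4 were called in the pooled comparison. Hspa5, the chaperone BiP, averaged 590 ± 109 CPM at baseline (SD, n = 6), 1057 ± 191 CPM at t2 (n = 5), 818 ± 259 CPM at t4 (n = 6) and 374 ± 72.6 CPM at t6 (n = 5), and the months differed by edgeR (adjusted p = 0.00263). Hyou1, a partner of BiP, averaged 137 CPM at baseline, 275 at t2, 208 at t4 and 108 at t6 (adjusted p = 0.00263), and Creld2 63.7, 96.5, 96.5 and 56.9 CPM (adjusted p = 0.0116). Against baseline, t2 had 10 members higher, t4 had 6 and t6 had 0, with 3 lower at t6. The promoters of Hspa5 and Creld2 are shown as examples of genes that moved with the months and hold a match to the ER stress element (CCAAT and, after a fixed spacer, CCACG). Capitals mark the match, which was searched on both strands and in Creld2 lies on the other strand. Both promoters are the 250 bases upstream of the start in RefSeq (GRCm38.p6), chr2:34771840-34772089 (+) for Hspa5 and chr15:88819396-88819645 (+) for Creld2.
Hspa5: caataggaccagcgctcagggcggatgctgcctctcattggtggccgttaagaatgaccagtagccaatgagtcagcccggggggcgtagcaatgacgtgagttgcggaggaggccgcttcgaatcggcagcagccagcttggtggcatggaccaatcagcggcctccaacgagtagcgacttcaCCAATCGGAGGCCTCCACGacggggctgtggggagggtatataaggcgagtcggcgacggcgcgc
Creld2: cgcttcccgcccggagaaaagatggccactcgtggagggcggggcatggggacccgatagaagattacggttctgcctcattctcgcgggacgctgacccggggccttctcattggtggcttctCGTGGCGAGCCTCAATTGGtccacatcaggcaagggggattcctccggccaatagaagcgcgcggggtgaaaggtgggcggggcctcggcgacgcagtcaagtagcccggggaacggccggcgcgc
The match lies 65 to 47 bases upstream in Hspa5 and 126 to 108 bases upstream in Creld2. Of all 32536 promoters 0.114% hold this motif on either strand. Of the 20 list members with a promoter in the table, 7 hold it at any of their listed starts, which is not a like measure. They are Hspa5, Hsp90b1, Pdia6, Calr, Canx, Dnajc3 and Creld2. Of these 7, Hspa5, Pdia6, Calr and Creld2 differed among the months, and Hsp90b1, Canx and Dnajc3 were not called. Hyou1, Sdf2l1, Pdia4 and Dnajb11 differed among the months but are not among the 7.

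Cytosolic heat shock genes had a higher mean at t2 than at t6 for 15 of 15 members, and 6 differed among the months (40%). Most members had their highest of the 3 means at t4, where library t4 336 stood apart. The summed level of the list was 19557 CPM in t4 336 and 4655 to 9982 CPM in the other t4 libraries. Its median was 8412 CPM at t2, 6645 CPM at t4 and 3546 CPM at t6. Hsph1, a partner of Hsp70, averaged 322 CPM at baseline, 419 at t2, 523 at t4 (SD 445) and 157 at t6 (adjusted p = 0.0236). Hspa8, the constitutive Hsp70, averaged 1870 CPM at baseline, 2318 at t2, 1739 at t4 and 630 at t6 (adjusted p = 0.0117). At t6, 8 members were lower than at baseline, and in the pooled comparison 0 of 15 were called. Clock genes differed among the months for 8 of 19 members (42.1%), in both directions. Dbp, an output gene of the clock, averaged 19 CPM at baseline, 4.05 at t2, 17.9 at t4 and 44.6 at t6 (adjusted p = 0.00933), and Nfil3, which is known to oppose it, 32.5, 58.8, 31.5 and 17.6 CPM (adjusted p = 0.0142). The hour of collection is not given in the sources used here, and its part in these differences was not tested.

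Among the genes with the smallest p-values over the months, Atp2a2, the calcium pump of the endoplasmic reticulum, averaged 825 CPM at t2, 634 CPM at t4 and 428 CPM at t6 (adjusted p = 0.00263). Tubb5, a beta tubulin, averaged 273, 170 and 131 CPM, and Mlec, a lectin of the endoplasmic reticulum, 456, 370 and 275 CPM in the same order. Hpse, the enzyme that cleaves heparan sulfate, ran the other way, with 18.8, 30.4 and 39.5 CPM. These genes, with Hspa5, Hyou1, Eif4ebp2 and Rbm14, kept their call in every fit with 1 library left out (adjusted p = 0.0254 at the highest).

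**Figure D5:**
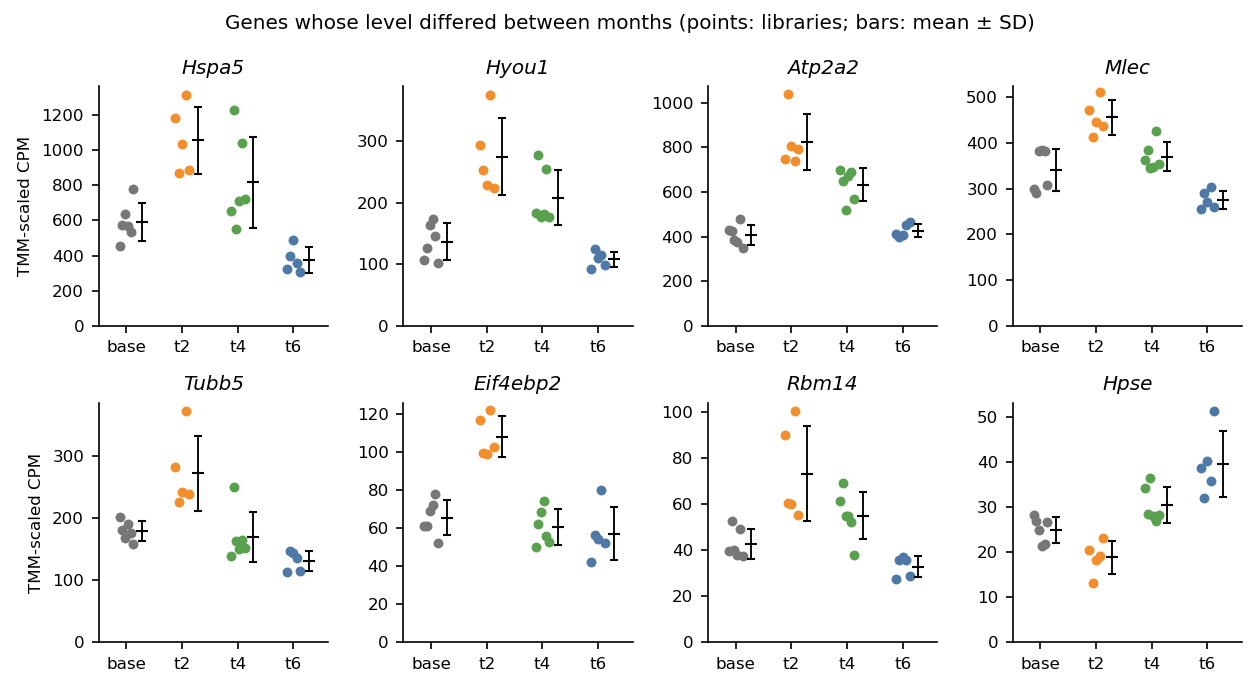
TMM-scaled CPM per library of 8 genes that differed among the months, at baseline, t2, t4 and t6 in order of time, with the mean and SD of each group beside the points. Hspa5 has means of 590 CPM at baseline, 1057 CPM at t2, 818 CPM at t4 and 374 CPM at t6, and Hpse has 18.8 CPM at t2 and 39.5 CPM at t6.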

How the data were processed

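RNA was measured in tracheal brushings of Gprc5a-/- mice, 1 library per mouse. The submitters' processing notes name STAR 2.4.1d, Bowtie2 2.1.0, Partek and mm10, with no role given for each. Strand use, multimapping and gene filters are not given in the sources used here, so overlapping and near-identical genes are uncertain. The authors' deposited table is named for RPKM but holds estimated counts for 24223 genes, of which 27 have date-like symbols. Of its values above 0, 76.3% are whole within 0.01. They were rounded to whole numbers, and the design assumed counts, so the tests are those planned.

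A gene was tested, two-sided, if 5 or more of the 22 libraries reached 1 CPM, with edgeR 4.0.16 in R 4.3.3 (quasi-likelihood, TMM, Benjamini-Hochberg, threshold 0.05). Alternatives used limma 3.58.1, DESeq2 1.42.0, other scalings and filters, sex as a covariate and libraries left out. The fits were tested on simulated data. Total counts of 15625264 to 37609774 per library limit precision for genes under a few CPM.

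Genes named were called genes with a mean of at least 5 CPM in the higher group and no date, Gm or Rik symbol. Of these the 8 largest rises and falls, the 6 smallest p-values and the 6 most abundant in each direction were taken, with the 2 smallest p-values of each list holding 3 or more calls, the 8 smallest p-values over the months and Gprc5a. Other list members are given from the lists, and some genes meeting the rule may not be reported here. Members and lists were chosen with earlier results of these data known.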

Additional observations from a re-analysis of the deposited data

Results flagged for a closer look

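For the genes named, 416 pairs of a gene and a group of 5 or 6 libraries were looked at for a library far from the others (Dixon's test at 95%), and 43 pairs held one. Chance gives about 1 in 20 groups. Library t4 336 stood apart for 7 genes, and t2 339, t2 358 and baseline 356 for 5 each.

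In t4 336, Ereg was at 48.1 CPM, Tubb5 at 251 CPM and Cry1 at 46.2 CPM, above the other t4 libraries, and Atm (10.4 CPM), Pitx1 (29.4 CPM), Rfx2 (94.8 CPM) and Wdr89 (1.94 CPM) were below them. In t2 339, Gprc5a (7.7 CPM) and Atp2a2 (1041 CPM) were high, and Atm (9.02 CPM), Polb (6.43 CPM) and Elf5 (0 CPM) were low. In t2 358, Ei24 (67.4 CPM), Lyz2 (11110 CPM) and Prex2 (3 CPM) were high, and Lfng (46.4 CPM) and Retnla (2.3 CPM) were low. In baseline 356, AU021092 (457 CPM), Ccng1 (164 CPM), Ddx58 (88 CPM), Ifi44 (140 CPM) and Myh1 (0.182 CPM) were high.

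Among the other t4 libraries, t4 340 was low for Aldh1a7 (88 CPM) and Scgb3a2 (1595 CPM) and high for Hhip (2.35 CPM). At t2, t2 360 was high for Myl1 (33.5 CPM). At t6, t6 349 was high for Barx2 (65 CPM), Cry1 (30.6 CPM) and Hba-a1 (47460 CPM) and low for Myl1 (0.337 CPM), and t6 368 was high for Retnla (25 CPM) and low for Dnaic2 (173 CPM).

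At baseline, library 345 was low for Cyp2f2 (18880 CPM) and high for Pigr (3878 CPM) and Tnnc2 (0.139 CPM). Library 352 was high for Ecm1 (31.6 CPM), Krt14 (18.8 CPM) and Prb1 (0.678 CPM), library 344 for Myh4 (0.803 CPM), Prex2 (60 CPM) and Wdr89 (168 CPM), and library 343 for Eef1a2 (0.0386 CPM). Library 343 was also low for Serpinf1 (34.8 CPM).

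The level of 14 named genes differed among t2, t4 and t6 by edgeR's quasi-likelihood test. The adjusted p was 0.0026 for Atp2a2, Hspa5 and Hyou1, 0.0038 for Eif4ebp2, Hpse and Tubb5, and 0.0079 for Mlec and Rbm14. It was 0.029 for Cry1, 0.03 for Hk2 and Myl1, 0.032 for Eef1a2, 0.044 for Rora and 0.049 for Fads3. Fads3 averaged 96.8 CPM at t2, 130 CPM at t4 and 122 CPM at t6, all above its baseline libraries.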

How the results depend on the processing

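No direction reversed under 42 alternatives of the pooled comparison, and 71 of 98 named results kept their call in every alternative that tested the gene. Some genes, such as Pvalb and Tnnc2, were not tested in all of them. With 3043 genes called, 1598 higher and 1445 lower, the values were 5898, 2864 and 3034 with limma voom and quality weights, 1567, 855 and 712 without t4, and 978, 473 and 505 without the 2 baseline libraries highest in Tg, an alternative chosen after seeing the data. With library totals only, 692 genes were lower, 342 differed among the months (611 with TMM), and 105 lay below every baseline library (197 with TMM). The causes were not tested. With 1 library left out, the called count ran from 1844 to 4027, the higher count from 962 to 2019, the lower count from 882 to 2008, the months count from 92 to 912, and the count of the pooled months against t0 from 4899 to 6452. Scgb1a1, Cyp2f2, Polb, Dmbt1, Hk2, E2f4 and Hhip each lost their call without at least 1 of the 6 baseline libraries. Areg, Atm, Ccng1 and Dnaic2 lost theirs without the 2 libraries highest in Tg (adjusted p = 0.0751 at the highest, for Areg), and Ckm with limma voom and quality weights (adjusted p = 0.176). No paired analysis was possible because animal numbers are not shared between the groups.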

Other observations

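Gene families were counted by symbol after their values were seen, and some of their members stand in the lists above (Serpinb2, Serpinb5, Clca3a1 and Akr1a1 among them). Of 11 Serpinb genes tested, 6 were higher after exposure and 0 lower, among them Serpinb11, at 108 to 475 CPM (median 215) after exposure and 32.9 to 104 CPM (median 54.9) at baseline (1.99 ± 0.30). Of 5 uroplakins, which coat umbrella cells of the bladder, 3 were higher, with Upk1b at 160 to 410 CPM (median 266) after exposure and 94.2 to 159 CPM (median 109) at baseline (1.22 ± 0.15). Of 5 Clca genes 3 were higher, with Clca3b at 69.2 to 417 CPM (median 232) after exposure and 10.3 to 46.6 CPM (median 22.6) at baseline (3.10 ± 0.37). All 16 post-exposure libraries lay above baseline for these examples.

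On the lower side were 3 of 3 Bex genes and 5 of 6 Armcx genes, which lie in related clusters on the X chromosome, with Armcx3 at 5.35 to 12.5 CPM (median 8.17) after exposure and 17.1 to 28 CPM (median 25) at baseline (−1.49 ± 0.16). Of 9 Akr1 genes, which encode aldo-keto reductases, 5 were lower, with Akr1c18 at 8.46 to 47.1 CPM (median 21.1) after exposure and 60.4 to 203 CPM (median 97.6) at baseline (−2.35 ± 0.25). Akr1c18 averaged 154 CPM at t0. Ldhb, a lactate dehydrogenase subunit, was at 28.9 to 52.4 CPM (median 41.9) after exposure and 77.9 to 140 CPM (median 106) at baseline (−1.43 ± 0.13), and Tlr5, the flagellin receptor, at 1.13 to 7.8 CPM (median 4.88) after exposure and 15.1 to 21.6 CPM (median 15.8) at baseline (−1.72 ± 0.22).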
